A study of Mus musculus with 30 samples.

Results

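The genes followed here encode proteins of myelin and of Schwann cells. The list held 8 genes, Mbp, Pmp22, Prx, Mag, Mal, Mog, S100b and Ngfr, out of 19938 genes with a symbol of their own on the array. A gene was represented by the transcript cluster (the set of probes that the array design assigns to 1 transcribed locus) that carried its symbol alone, and by the brightest such cluster over all arrays if there were several. Of the 8 listed genes, 7 were found and each had 1 such cluster. Prx was not analysed here. The samples were scleras of albino, inbred Balb/cJ mice, taken from animals of 1 family at 1, 2, 3, 6 and 8 weeks of age. Each of the 30 Mouse Gene 1.0 ST arrays held the RNA of a single sclera from a single mouse, and there were 6 arrays per age. The labels name no treatment, and age is the only difference they give between the groups. Differences are given as the later week minus the earlier week.

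The sclera is the collagen-rich outer coat of the eye. Ciliary nerves run through it, and Schwann cells, the glia of peripheral nerves, ensheath their axons and wrap the larger ones in myelin. The optic nerve leaves the eye through an opening in the sclera at its back, and behind the eye its axons are myelinated by oligodendrocytes, the myelin-forming cells of the central nervous system. Both kinds of myelin are stacks of compacted membrane rich in lipid, but their proteins differ in part. Pmp22 is a protein of compact peripheral myelin, and Mog lies on the surface of central myelin only. Mbp, which holds the inner faces of the membrane together, and Mag, an adhesion molecule facing the axon, occur in both. Mal is a proteolipid of membrane rafts in myelin and in epithelia. S100b is a calcium-binding protein of Schwann cells, astrocytes and melanocytes, and Ngfr is the p75 neurotrophin receptor found on Schwann cells that do not form myelin, among others.

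Upstream sequences are shown for Pmp22, S100b and Mag. Pmp22 and S100b correlated at 0.592 over the 30 arrays, and at 0.662 after the mean of each week was subtracted. Mag varied widely between arrays of the same age. Each sequence holds the 250 bases before an annotated transcription start in RefSeq GRCm38.p6, read 5′ to 3′ on the strand of the gene. Capitals mark matches, on either strand, to the letters of the CCAAT box (CCAAT), the GC box (GGGCGG) and a SOX core (ACAAAG). The TATA box letters (TATAAA) were also searched and were found in none of these windows.
Pmp22, start 1, chr11:63128732-63128981, plus strand: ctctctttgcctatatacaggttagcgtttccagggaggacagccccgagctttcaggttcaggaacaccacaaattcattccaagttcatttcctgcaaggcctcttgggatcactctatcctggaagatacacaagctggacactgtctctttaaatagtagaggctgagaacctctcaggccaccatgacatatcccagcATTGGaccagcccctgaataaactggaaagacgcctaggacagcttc
Pmp22, start 2, chr11:63131207-63131456, plus strand: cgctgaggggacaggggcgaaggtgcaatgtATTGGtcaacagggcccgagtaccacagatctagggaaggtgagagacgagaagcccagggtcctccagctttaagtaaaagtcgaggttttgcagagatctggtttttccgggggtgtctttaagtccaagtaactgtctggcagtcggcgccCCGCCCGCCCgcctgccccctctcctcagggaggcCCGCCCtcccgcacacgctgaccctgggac
S100b, chr10:76253586-76253835, plus strand: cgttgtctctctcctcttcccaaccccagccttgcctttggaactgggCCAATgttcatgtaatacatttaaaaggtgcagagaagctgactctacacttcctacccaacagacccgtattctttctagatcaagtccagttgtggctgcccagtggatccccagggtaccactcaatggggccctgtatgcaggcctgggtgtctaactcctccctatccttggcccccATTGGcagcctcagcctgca
Mag, start 1, chr7:30914923-30915172, minus strand: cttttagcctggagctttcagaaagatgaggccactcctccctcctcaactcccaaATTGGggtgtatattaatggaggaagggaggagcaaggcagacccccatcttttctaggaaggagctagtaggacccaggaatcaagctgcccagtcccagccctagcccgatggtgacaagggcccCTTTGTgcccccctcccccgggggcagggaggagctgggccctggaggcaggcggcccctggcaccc
The Pmp22 window at start 1 had 1 CCAAT match, and that at start 2 had 1 CCAAT match and 3 GC box matches, of which 2 overlap by 2 bases. The S100b window had 2 CCAAT matches, and the Mag window had 1 CCAAT match and 1 SOX core match. Among 32851 such windows in the table, 33.8% held CCAAT, 32.7% held GGGCGG, 16.5% held ACAAAG and 12.4% held TATAAA. The table gave 4 starts for Pmp22 and 3 for Mag. The G and C content was 48.8% at Pmp22 start 1, 61.2% at Pmp22 start 2, 53.6% for S100b and 61.2% for Mag, against a median of 52.4% over all windows. A match of letters is a description of the sequence, and binding was not measured.

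The arrays had median log2 signals between 6.15 and 6.37, and arrays of the same week correlated with each other at 0.954 to 0.991. The spread of signals within an array differed between weeks. Its mean interquartile range was 2.7, 2.36, 2.75, 2.44 and 2.53 log2 units in weeks 1, 2, 3, 6 and 8. The part of this spread in the changes of single genes was not tested, and counts after quantile normalization are given below. The scleral fibroblast genes, a list of 9 collagen and proteoglycan genes, had mean log2 signals of 9.54 to 10.82 over the weeks, so the markers of the labelled tissue were present. Lists for other tissues of the eye and its surroundings shifted widely between weeks. Over weeks 1, 2, 3, 6 and 8 the mean log2 signal of 12 striated muscle genes was 11.18, 7.18, 6.93, 9.91 and 10.54. That of 11 photoreceptor genes was 9.46, 5.92, 7.28, 6.997 and 6.93. In bulk tissue a lower signal from fewer cells of a type cannot be told apart from a lower signal with less RNA per cell. Precision is limited throughout by how many arrays there were.

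**Figure D1:**
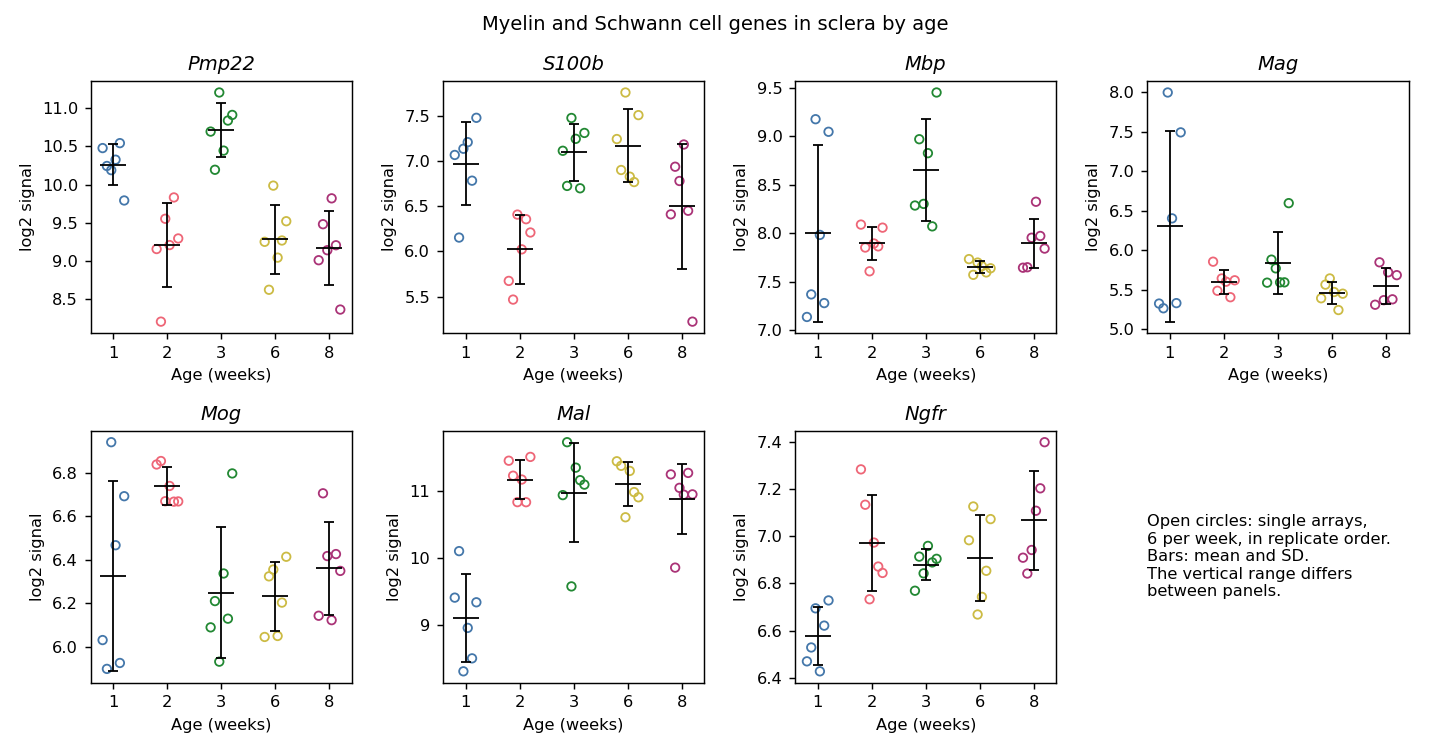
log2 signal of the 7 measured genes on each of the 30 arrays (open circles) by age in weeks, with the mean and SD of the 6 arrays of a week. Pmp22 dips in weeks 2, 6 and 8, Mal is low in week 1 alone, and Mbp, Mag and Mog have their widest scatter in week 1.

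Differences among the 5 ages were tested with limma over all transcript clusters, and p-values were adjusted by the method of Benjamini and Hochberg. By the moderated F test over the 5 weeks, 6 of the 7 genes passed an adjusted p of 0.05, as did 91.3% of all transcript clusters, and Mag did not (adjusted p = 0.0905). A gene was called in a comparison of weeks at a fold change of at least 2 with an adjusted p of at most 0.05. In week 2 versus 1, 2 of the 7 were called, against 11.6% of all transcript clusters. Mal was higher and Pmp22 was lower in week 2. In week 3 versus 2, Pmp22 and S100b were called, both higher, against 4.39% of all transcript clusters. In week 6 versus 3, Pmp22 and Mbp were called, both lower, against 7.58%. No member was called by limma in week 8 versus 6, against 3.78%, and none without moderated variances. S100b was the only member there with an unadjusted p under 0.05, and its adjusted p was 0.0401. In week 8 versus 1, Mal was called higher and Pmp22 lower, against 7.19%. Without the fold threshold, 5 members passed in week 2 versus 1, against 68.2% of all transcript clusters, and 4 passed in week 3 versus 2, against 51.2%. The counts were 2 in week 6 versus 3, against 55.4%, and 1 in week 8 versus 6, against 36.2%. There were 4 in week 8 versus 1, against 54.1%.

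**Figure D2:**
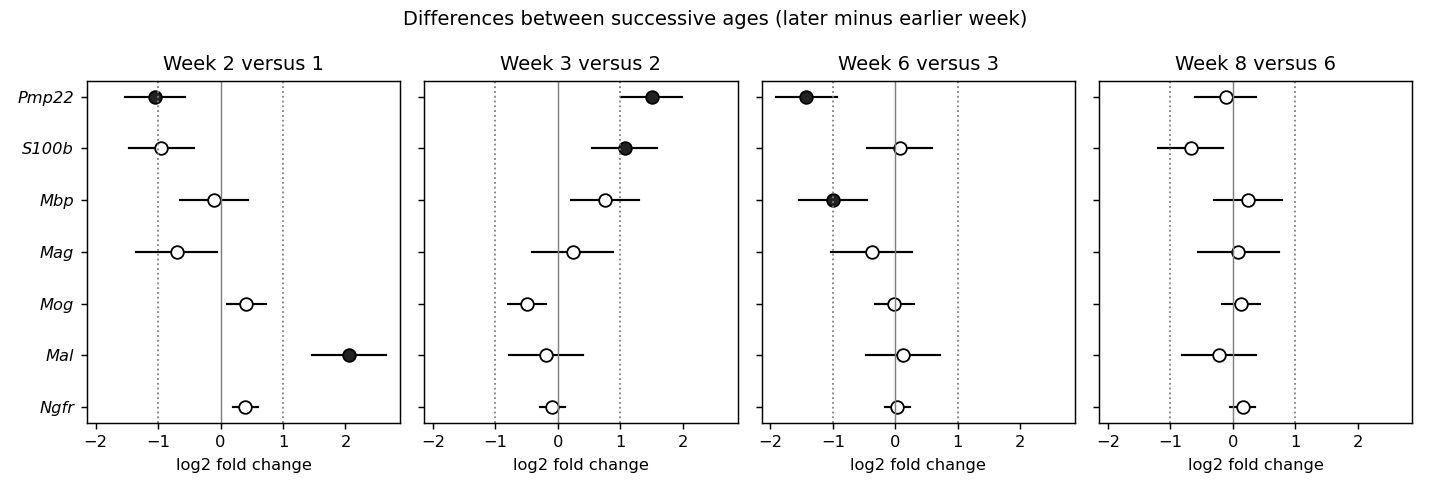
log2 fold change (later minus earlier week) of the 7 genes in the 4 comparisons of successive ages, with 95% confidence intervals of the limma fit. Filled points were called at a fold change of at least 2 (dotted lines) and an adjusted p of at most 0.05. Pmp22 is called in 3 of the 4 comparisons and no gene is called in week 8 versus 6.

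The peripheral myelin gene Pmp22 alternated between high and low weeks. Its lowest, median and highest log2 signals were 9.79, 10.28 and 10.54 in week 1, 8.21, 9.25 and 9.83 in week 2, and 10.19, 10.76 and 11.20 in week 3. They were 8.63, 9.26 and 9.99 in week 6, and 8.37, 9.18 and 9.82 in week 8. All arrays of week 3 lay above all arrays of weeks 2, 6 and 8, whereas weeks 1 and 2 overlapped through the highest array of week 2 and the lowest of week 1. Pmp22 fell 2.07-fold in week 2 against week 1 (log2 fold change -1.05, SE 0.24, limma adjusted p = 0.000345). It rose 2.83-fold in week 3 against week 2 (1.501, SE 0.24, limma adjusted p = 1.33e-05) and fell 2.69-fold in week 6 against week 3 (-1.43, SE 0.24, limma adjusted p = 1.19e-05). The order of the weekly means was week 3, 1, 6, 2 and 8, and of the neighbours in it only weeks 1 and 6 differed (limma adjusted p = 0.00118). The decrease in week 2 lost its call without week 2 replicate 2, the array with the lowest signal (log2 fold change -0.85), or without week 1 replicate 5 (-0.99), since the fold change was then under 2.

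Pmp22 correlated over the arrays with the scleral fibroblast genes. The 3 genes with the most similar profile over the 30 arrays were Cd81 (r = 0.971), which encodes a tetraspanin, Selenon (r = 0.959), a selenoprotein of the endoplasmic reticulum, and Adgre5 (r = 0.958), an adhesion receptor. The mean of the 9 scleral fibroblast genes correlated with Pmp22 at r = 0.803, and at 0.850 after the mean of each week was subtracted. Other lists correlated with Pmp22 too. The values were 0.833 and 0.624 for 7 neurotrophin ligands and receptors, and 0.591 and 0.757 for 10 melanocyte genes, each before and after that subtraction. They were 0.533 and 0.102 for 11 myelin genes outside the member list, and 0.528 and 0.218 for 14 Schwann lineage genes. For 4 neuregulins they were -0.779 and -0.836. The fibroblast list had 6 of 9 genes lower in week 2 versus 1 and 5 of 9 higher in week 3 versus 2. In the other 2 comparisons in which Pmp22 was called lower, the list had 1 of 9 lower for week 6 versus 3 and 3 of 9 lower for week 8 versus 1. Its mean ranged from 8.80 to 10.24 in week 2, against 10.40 to 11.18 in week 1. Correlations over arrays are given as descriptions, since arrays of a week share an age and all genes of an array share its RNA. The part of fibroblast content in the changes of Pmp22 was not tested.

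S100b was also low in week 2. Its lowest, median and highest log2 signals were 6.15, 7.10 and 7.48 in week 1, 5.47, 6.12 and 6.41 in week 2, 6.70, 7.18 and 7.47 in week 3, 6.77, 7.07 and 7.76 in week 6, and 5.22, 6.61 and 7.18 in week 8. The arrays of week 2 lay wholly below those of weeks 3 and 6 and overlapped those of week 1 through a single week 1 array at 6.15. S100b rose 2.10-fold in week 3 against week 2 (log2 fold change 1.07, SE 0.26, limma adjusted p = 0.00118) and stood 2.21-fold higher in week 6 than in week 2 (1.14, SE 0.26, limma adjusted p = 0.000542). In week 2 against week 1 the log2 fold change was -0.95 (SE 0.26, limma adjusted p = 0.00187), which did not reach the fold threshold. It passed the threshold without week 1 replicate 2, week 2 replicate 3 or week 2 replicate 5, with log2 fold changes of -1.11, -1.02 and -1.01. The increase in week 3 lost its call without week 2 replicate 2 (0.96) or week 3 replicate 3 (0.995). In week 8 the array of replicate 6 had the lowest S100b signal of the series, 5.22, and the log2 fold change against week 6 was -0.67 (SE 0.26, limma adjusted p = 0.0401). Without that array it was -0.42 (limma adjusted p = 0.154). In the order of weekly means, week 6, 3, 1, 8 and 2, no neighbours differed, while the ends of the order did.

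The closest profiles to S100b were those of Cdh19 (r = 0.890), a cadherin of Schwann cell precursors, Sptbn1 (r = 0.888), a spectrin of the membrane skeleton, and Fam189a2 (r = 0.885). Cdh19 had log2 signals of 3.67 to 4.89 in week 2, against 4.92 to 6.04 in week 1, and its log2 fold change of -0.998 had a limma adjusted p of 0.000265. It returned in week 3 (log2 fold change 0.997, limma adjusted p = 0.00059) and was lower in week 8 than in week 6 (-0.97, limma adjusted p = 0.00095), each just under the fold threshold. Week 8 replicate 6, the lowest array for S100b, was also the lowest of its week for Cdh19, at 3.79. Sox10, the transcription factor of Schwann cells, oligodendrocytes and melanocytes, shared the low week 2, with log2 fold changes of -0.73 in week 2 versus 1 and 0.72 in week 3 versus 2 (limma adjusted p = 3.79e-05 and 0.000117). Its later course differed from that of S100b and Cdh19, with log2 fold changes of -0.37 in week 6 versus 3 (limma adjusted p = 0.0244) and 0.15 in week 8 versus 6 (limma adjusted p = 0.42).

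The mean of the melanocyte list correlated with S100b as well. The mean of the 10 melanocyte genes correlated with S100b at r = 0.816, and at 0.746 within weeks. This list had 9 of 10 genes lower in week 2 versus 1 and 9 of 10 higher in week 3 versus 2. In week 8 versus 1 it had 9 of 10 lower and 1 higher, whereas S100b was not called (log2 fold change -0.47, limma adjusted p = 0.116). The gene apart from the other 9 was Kit, with log2 signals of 7.97 to 8.74 in week 1 and 8.58 to 9.35 in week 2. Kit had 8.01 to 9.12 in week 3 and 8.33 to 9.73 in week 8. Which pigment cells gave the signals of the other 9 was not tested. The melanocyte mean ranged from 5.93 to 8.06 in week 2, against 9.21 to 10.79 in week 1. On week 8 replicate 6 the melanocyte mean was 7.47, the lowest of that week. S100b and Sox10 are not expressed by Schwann cells alone, and the share of S100b signal from each cell type was not tested. S100b also correlated with the mean of the 9 scleral fibroblast genes, at r = 0.708, and at 0.565 within weeks. Pmp22 and S100b correlated at r = 0.592 over the 30 arrays, and at 0.662 after the week means were subtracted. Their courses parted in week 6 versus 3, with log2 fold changes of -1.43 for Pmp22 and 0.07 for S100b.

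**Figure D3:**
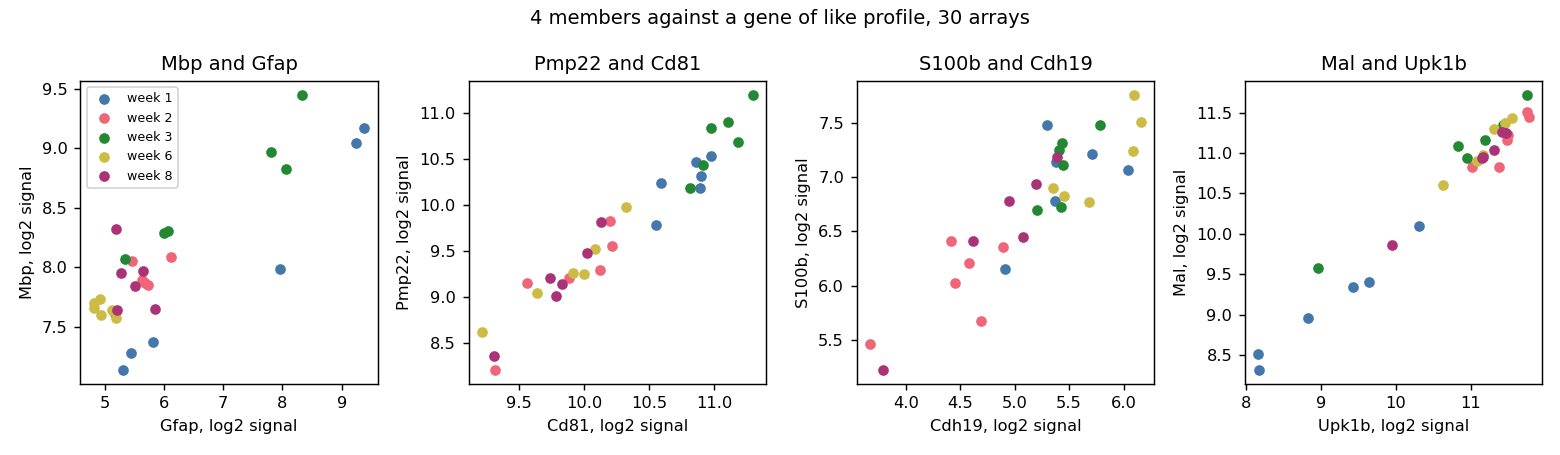
log2 signals of 4 members (vertical axes) against a gene among the 3 of most similar profile (horizontal axes) on the 30 arrays, coloured by week. The points run along a line for Pmp22 with Cd81, S100b with Cdh19 and Mal with Upk1b, and the high Mbp signals of weeks 1 and 3 lie at high Gfap.

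Mag and Mbp had the widest spread of the members in week 1 (SD 1.21 and 0.909), whereas Pmp22 was widest in weeks 2 and 6, Mal in week 3 and S100b in week 8. Mag had log2 signals of 5.32, 5.26, 8.00, 6.40, 5.33 and 7.49 on week 1 replicates 1 to 6, and a lowest, median and highest signal of 5.40, 5.61 and 5.85 in week 2. They were 5.59, 5.68 and 6.59 in week 3, 5.24, 5.46 and 5.64 in week 6, and 5.31, 5.53 and 5.85 in week 8. Replicates 3, 4 and 6 of week 1 thus stood above every array of weeks 2, 6 and 8, and the other 3 arrays of week 1 did not. In the other weeks the SD of Mag was between 0.139 and 0.391, and its median signals lay below the lowest array median of 6.15. Mag was not called in any of the 5 comparisons, and it had log2 fold changes of -0.70 in week 2 versus 1 (SE 0.32, limma adjusted p = 0.0513) and -0.75 in week 8 versus 1 (SE 0.32, limma adjusted p = 0.0463). Among the neighbours in its order of weeks, 1, 3, 2, 8 and 6, none differed.

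Mbp behaved alike within week 1 and was also raised in week 3. Its log2 signals on week 1 replicates 1 to 6 were 7.14, 7.37, 9.18, 7.98, 7.28 and 9.05. The lowest, median and highest were 7.61, 7.88 and 8.09 in week 2, 8.07, 8.56 and 9.45 in week 3, 7.57, 7.65 and 7.73 in week 6, and 7.65, 7.90 and 8.33 in week 8. All arrays of week 3 lay above all those of week 6, while weeks 3 and 2 met at 8.07 and 8.09. In week 3 versus 2 the log2 fold change was 0.76 (SE 0.27, limma adjusted p = 0.0198), under the fold threshold. Mbp fell 2.00-fold in week 6 against week 3 (-1.0004, SE 0.27, limma adjusted p = 0.0023), at the threshold itself. In the order of weekly means, week 3, 1, 8, 2 and 6, only week 3 differed from its neighbour (limma adjusted p = 0.0443).

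The increase of Mbp in week 3 was uneven across arrays. Replicates 2, 4 and 6 had 8.97, 8.83 and 9.45, and replicates 1, 3 and 5 had 8.29, 8.30 and 8.07. The same replicates 2, 4 and 6 had Gfap signals of 7.81, 8.06 and 8.33, and replicates 1, 3 and 5 had 6.00, 6.07 and 5.34. Gfap is the intermediate filament of astrocytes, which are a major glial cell of the optic nerve, and Mbp correlated with it at r = 0.831. With the mean of 11 other myelin genes Mbp correlated at 0.889, and with that of 14 Schwann lineage genes at 0.714. The values were 0.427 for 13 oligodendrocyte genes and 0.462 for 8 genes of Mueller glia and astrocytes. After the week means were subtracted, these 4 correlations were 0.827, 0.653, 0.749 and 0.769. Without week 3 replicates 2, 4 and 6, left out after the values were seen, the Mbp log2 fold change was -0.57 in week 6 versus 3 (limma adjusted p = 0.132) and 0.33 in week 3 versus 2 (limma adjusted p = 0.411). The call in week 6 versus 3 was also lost on leaving out any of 6 single arrays, with log2 fold changes from -0.998 to -0.84.

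Mog, the central myelin surface protein, had log2 signals between 5.90 and 6.94 on all arrays, around the array medians of 6.15 to 6.37. How far signals of this size stood above background was not tested. They were 6.03, 5.90, 6.94, 6.47, 5.92 and 6.69 on week 1 replicates 1 to 6. The lowest, median and highest were 6.67, 6.71 and 6.86 in week 2, 5.93, 6.17 and 6.80 in week 3, 6.05, 6.26 and 6.41 in week 6, and 6.12, 6.38 and 6.71 in week 8. The arrays of week 6 lay below all those of week 2, and week 3 overlapped week 2 through replicate 6 at 6.80. The log2 fold change was 0.41 in week 2 versus 1 (SE 0.15, limma adjusted p = 0.0168) and -0.49 in week 3 versus 2 (SE 0.15, limma adjusted p = 0.00842), both under the fold threshold. In its order of weeks, 2, 8, 1, 3 and 6, no neighbours differed. With week 1 replicates 3, 4 and 6 left out after the values were seen, Mog was higher in week 2 by 0.79 on the log2 scale (limma adjusted p = 6.28e-05).

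Within weeks Mbp, Mag and Mog followed each other from array to array. The genes closest in profile to Mbp were Kif5a (r = 0.848), a kinesin of neurons, Gfap and Scrg1 (r = 0.821). Those closest to Mag were Soga3 (r = 0.893), Chrna5 (r = 0.890) and Gabrg3 (r = 0.885), the last 2 being subunits of neurotransmitter receptors. For Mog they were the glutamate receptor Grm2 (r = 0.817), the neural proteoglycan Ncan (r = 0.795) and Tmem88b (r = 0.765). After the week means were subtracted, the correlation over 30 arrays was 0.890 for Mbp with Mag, 0.830 for Mag with Mog and 0.753 for Mbp with Mog. Without that subtraction the correlations of the same 3 pairs were lower, at 0.731, 0.525 and 0.4. Among all 21 pairs of members the correlations after subtraction ran from -0.548 to 0.890. Of these, 4 exceeded 0.5, namely these 3 pairs and Pmp22 with S100b. In week 1, replicates 3, 4 and 6 were the 3 highest arrays for Mbp, Mag, Mog and S100b, which makes 4 of 7 members, against 12.1% of the 19938 genes. In week 3, replicate 6 was the highest array for Mbp, Mag and Mog, against 17.5% of genes. These arrays were picked after the values were seen. The counts on them, here and for the lists below, are therefore descriptions and not tests.

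Some other genes of myelin and of glia had the same high arrays in week 1. Cnp, an enzyme of the cytoplasmic face of myelin, had log2 signals of 9.38, 8.10 and 9.08 on replicates 3, 4 and 6, and 6.92, 7.17 and 6.9996 on replicates 1, 2 and 5. Ugt8a, which makes the galactolipids of myelin, had 8.45, 7.10 and 7.98 on replicates 3, 4 and 6, and 5.44, 5.78 and 5.58 on the others. Gfap had 9.38, 7.95 and 9.24 there, and 5.32, 5.81 and 5.45 on the others. Mobp, Opalin and Cldn11, proteins of oligodendrocytes and their myelin, were likewise highest on these 3 arrays, with 7.08, 5.06 and 8.50 on replicate 3. Opalin was low throughout, and its 4.49 on replicate 4 lay close to its 4.45 on replicate 1. Of the lists, 3 of 11 myelin genes, 5 of 13 oligodendrocyte genes, 5 of 8 genes of Mueller glia and astrocytes, 6 of 13 axon genes and 9 of 11 photoreceptor genes had replicates 3, 4 and 6 as the 3 highest of week 1. None of the melanocyte, surface epithelium, striated muscle, scleral fibroblast or adipocyte genes did.

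Of the 14 Schwann lineage genes, 3 had replicates 3, 4 and 6 as the 3 highest of week 1, against 12.1% of all genes with 1 symbol. These were Sox2, Ncam1 and Gap43. Sox10, which oligodendrocytes and melanocytes express as well as Schwann cells, was not among them. Its log2 signals were 7.22, 7.28 and 7.29 on week 1 replicates 3, 4 and 6, and 7.42, 7.05 and 7.81 on replicates 1, 2 and 5. The photoreceptor mean on replicates 3, 4 and 6 was 10.43, 9.98 and 10.75, and on replicates 1, 2 and 5 it was 8.14, 7.67 and 9.81. Replicate 5 was thus high in photoreceptor genes without being high in Mag, Mbp or Mog. The part that retinal or optic nerve tissue had in these signals was not tested. Without week 1 replicates 3, 4 and 6, left out after the values were seen, the direction turned in week 2 versus 1 for Mbp (log2 fold change 0.63, limma adjusted p = 0.00947) and for Mag (0.29, limma adjusted p = 0.128). It also turned in week 8 versus 1 for Mbp (0.64, limma adjusted p = 0.0168) and for Mag (0.24, limma adjusted p = 0.255). The number of members called stayed at 2 in week 2 versus 1 and in week 8 versus 1.

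**Figure D4:**
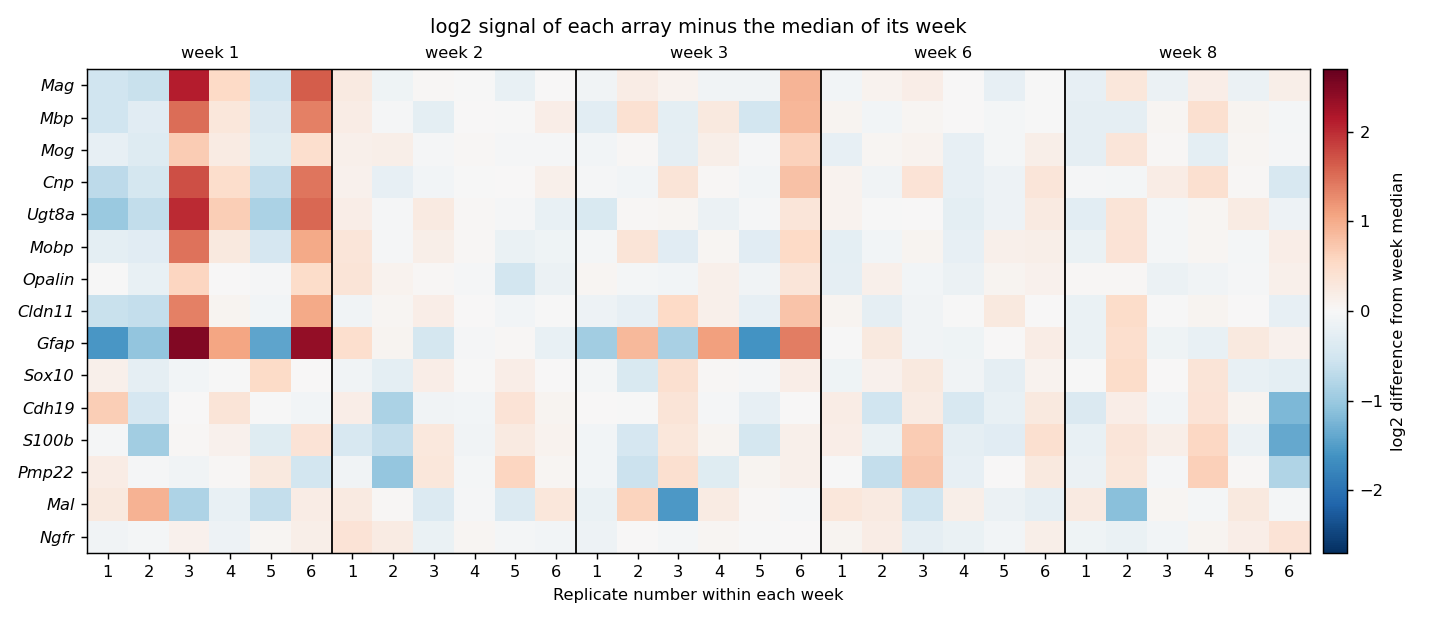
Each cell is the log2 signal of a gene on an array minus the median of the 6 arrays of its week, with arrays in replicate order within each week. The rows from Mag to Gfap show only genes with replicates 3, 4 and 6 as the 3 highest arrays of week 1. Of the full lists, 3 of 11 myelin genes and 5 of 13 oligodendrocyte genes had this pattern. The red cells of these rows fall mainly on week 1 replicates 3, 4 and 6 and on week 3 replicate 6. Sox10, Cdh19, Pmp22, Mal and Ngfr do not have all 3 of these week 1 replicates as their highest.

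Mal, the raft proteolipid, had the largest fold change of any member in the 5 comparisons. It had lowest, median and highest log2 signals of 8.32, 9.15 and 10.10 in week 1, and 10.83, 11.19 and 11.50 in week 2. They were 9.58, 11.12 and 11.72 in week 3, 10.60, 11.14 and 11.44 in week 6, and 9.86, 10.99 and 11.26 in week 8. Week 1 lay wholly below weeks 2 and 6, and it overlapped weeks 3 and 8 through 1 low array in each. Mal rose 4.16-fold in week 2 against week 1 (log2 fold change 2.06, SE 0.29, limma adjusted p = 7.61e-07) and stood 3.42-fold higher in week 8 than in week 1 (1.77, SE 0.29, limma adjusted p = 1.49e-05). From week 2 on no neighbours in the order of means differed.

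The profile of Mal was that of surface epithelium. Its 3 closest genes were Upk1b (r = 0.983), which encodes a uroplakin, Cwh43 (r = 0.981) and Scel (r = 0.976), which encodes sciellin of the cornified envelope. The mean of 12 surface epithelium genes correlated with Mal at r = 0.963, and at 0.962 within weeks. This list had 11 of 12 genes higher in week 2 versus 1 and in week 8 versus 1, and its mean was 10.28 to 11.12 in week 2, against 7.89 to 9.66 in week 1. The low Mal arrays, week 3 replicate 3 at 9.58 and week 8 replicate 2 at 9.86, had epithelial means of 9.14 and 9.99, the lowest of their weeks. Within weeks Mal correlated with the mean of the 11 measured myelin genes outside the member list at -0.265. The part of epithelial tissue in the change of Mal was not tested.

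Ngfr varied little between arrays, with weekly SDs from 0.0659 to 0.21. Its lowest, median and highest log2 signals were 6.43, 6.57 and 6.73 in week 1, 6.73, 6.92 and 7.28 in week 2, 6.77, 6.90 and 6.96 in week 3, 6.67, 6.92 and 7.13 in week 6, and 6.84, 7.02 and 7.40 in week 8. Every array of weeks 2, 3 and 8 lay above every array of week 1. The log2 fold change was 0.39 in week 2 versus 1 (SE 0.10, limma adjusted p = 0.000915) and 0.49 in week 8 versus 1 (SE 0.10, limma adjusted p = 0.000185), under the fold threshold in both. Ngfr and Mal were the 2 members with no overlap between the arrays of weeks 2 and 1, against 34.7% of all transcript clusters. In its order of weeks, 8, 2, 6, 3 and 1, only weeks 3 and 1 differed (limma adjusted p = 0.0128). The closest profiles were those of the neuregulin Nrg2 (r = 0.835), the cytokine receptor subunit Il20rb (r = 0.834) and the zinc finger gene Zfp296 (r = 0.816). With the list means Ngfr correlated at -0.037 for Schwann lineage genes and 0.0286 for myelin genes (0.0418 and 0.226 within weeks). The values were 0.755 for neuregulins, 0.687 for surface epithelium and -0.734 for scleral fibroblast genes (0.672, 0.225 and -0.705 within weeks).

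The wider myelin list did not shift in 1 direction in week 2 versus 1, and its mean was highest in week 3. Over weeks 1, 2, 3, 6 and 8 the mean log2 signal of its 11 measured genes was 6.37, 6.30, 6.59, 6.27 and 6.33. On single arrays this mean was 6.43 to 6.76 in week 3. It was 6.10 to 6.70 in week 1, 6.22 to 6.43 in week 2 and 6.18 to 6.36 in week 6. Of the 11 genes, 1 was called higher and 2 lower in week 2 versus 1, and their median log2 fold change was -0.00398, against 0.06 over all transcript clusters. Pllp, a plasmolipin of myelin and epithelia, rose (log2 fold change 1.25, limma adjusted p = 1.8e-06), and Cnp (-1.13, limma adjusted p = 0.00136) and Ugt8a (-1.39, limma adjusted p = 0.000598) fell. Both of these were high on week 1 replicates 3, 4 and 6. None of the 11 was called in week 3 versus 2 or in week 8 versus 6, although 3 were higher and 1 lower by the limma adjusted p alone in week 3 versus 2. Cnp was the only 1 called in week 6 versus 3, lower (-1.40, limma adjusted p = 0.000216). By the limma adjusted p alone, 5 of the 11 were lower and 1 higher there, against 55.4% of all transcript clusters in either direction. Cldn19, the tight junction claudin of peripheral myelin, was not called in any of these comparisons. Its weekly mean log2 signals were 6.77, 6.77, 7.25, 6.66 and 6.83, highest in week 3 as for Pmp22 and Mbp.

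Among 14 Schwann lineage factors and receptors, 3 were called higher and 3 lower in week 2 versus 1, with a median log2 fold change of 0.35, against the same 0.06. The neuregulin receptors Erbb3 (log2 fold change 1.58, limma adjusted p = 1.5e-07) and Erbb2 (1.09, limma adjusted p = 6.37e-08) and the adhesion molecule L1cam (1.02, limma adjusted p = 8.69e-06) rose. These 3 genes are also expressed by epithelia or other nervous tissue. The neural adhesion molecule Ncam1 (-2.86, limma adjusted p = 1.03e-10), the growth cone protein Gap43 (-1.57, limma adjusted p = 1.38e-09) and the progenitor factor Sox2 (-1.32, limma adjusted p = 0.000299) fell. All 3 had week 1 replicates 3, 4 and 6 as their highest arrays of that week. Egr2, the transcription factor that drives peripheral myelin genes, had a log2 fold change of 0.70 in week 2 versus 1 (limma adjusted p = 4.25e-06) and was not called. No gene of the list was called in the 3 later successive comparisons.

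Neuregulins and neurotrophin genes differed from gene to gene. Nrg1, the neuregulin that sets myelin thickness in peripheral nerves, rose in week 2 against week 1 (log2 fold change 1.45, limma adjusted p = 8.11e-09) and was the only 1 of 4 neuregulins called. Of 7 neurotrophin ligands and receptors none was called higher and 2 were called lower in week 2 versus 1. These were the receptor Ntrk2 (-1.24, limma adjusted p = 4.05e-09) and Bex3, whose protein binds the p75 receptor (-1.37, limma adjusted p = 2.57e-10). Bex3 was called higher in week 3 versus 2 (1.15, limma adjusted p = 1.42e-08). Its weekly means of 8.24, 6.87, 8.02, 7.25 and 6.89 had the same high weeks, 1 and 3, as Pmp22.

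Of 13 oligodendrocyte genes, 1 was called higher and 3 lower in week 2 versus 1, with a median log2 fold change of -0.12. Ermn (log2 fold change -2.56, limma adjusted p = 4.15e-08), a cytoskeletal protein of myelinating oligodendrocytes, Gpr37 (-2.63, limma adjusted p = 4.46e-09), a receptor that restrains their differentiation, and Myrf (-1.25, limma adjusted p = 6.6e-08), their myelin regulatory factor, fell. Bcas1, a protein of early myelinating oligodendrocytes that epithelia also express, rose (1.45, limma adjusted p = 1.92e-05). Ermn then rose in week 3 (1.23, limma adjusted p = 0.00139) and in week 6 (1.23, limma adjusted p = 0.000949) and fell in week 8 (-1.54, limma adjusted p = 0.00018), each against the preceding age. Aspa, which breaks down N-acetylaspartate in oligodendrocytes, was the other gene called in week 8 versus 6, lower (-1.12, limma adjusted p = 2.49e-08). This course differs from that of Mag and Mog, which were not called in those comparisons, though the difference between the genes was not tested. The defining factors Olig1 and Olig2 were not called in any of these comparisons, and their weekly mean log2 signals stayed between 5.93 and 6.18 for Olig1 and between 5.32 and 5.77 for Olig2.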

How the data were processed

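RNA of 30 single mouse scleras was measured on Mouse Gene 1.0 ST arrays. The values used are the log2 signals of 35556 transcript clusters that the authors deposited. The study's methods name robust multiarray averaging and a batch removal on scan date, whereas the submitters' notes name GCRMA in Partek 6.5. Which of these made the deposited values, the scan dates and the sex of the mice are not given in the sources used here. A platform table gave 1 symbol to 21789 transcript clusters, several to 1621 and none to 12146.

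The values were fitted as deposited with limma 3.58.1 in R 4.3.3, with a mean for each week, and each comparison was adjusted by Benjamini-Hochberg over all transcript clusters. The fit was tested on simulated data. The genes named are the members, the 3 genes closest to each by Pearson correlation and genes of 13 lists (130 of 137 genes measured). The members and lists were chosen with earlier results of these data known. Alternatives were other sets of transcript clusters, scalings, weights, a replicate block, other thresholds and arrays left out. The other genes of the lists are not reported here. Sequences were taken from RefSeq, where 7 of the 8 genes matched, Mbp not among them.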

Additional observations from a re-analysis of the deposited data

Results flagged for a closer look

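Of 35 groups of 6 arrays (7 genes in 5 weeks), 3 held an array that lay far from the other 5 by Dixon's criterion, and chance gives about 1 in 20. Mag had a log2 signal of 6.59 on week 3 replicate 6, against 5.59 to 5.88 on the other arrays of that week. Mal had 9.58 on week 3 replicate 3, against 10.93 to 11.72 on the others, and 9.86 on week 8 replicate 2, against 10.94 to 11.26 on the others. On the same arrays the mean log2 signal of the 12 surface epithelium genes was 9.14 and 9.99. The mean of the 11 photoreceptor genes was 8.17 on week 3 replicate 6, the highest of that week.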

How the results depend on the processing

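The number of members called kept its value under a fit of transcript clusters with 1 symbol, median centring, a fit of only the weeks compared and unmoderated variances. With no fold threshold 5 members passed for week 2 versus 1, 4 for week 3 versus 2, 1 for week 8 versus 6 and 4 for week 8 versus 1. Quantile normalization gave 1 in week 2 versus 1 and 1 in week 6 versus 3, array quality weights gave 1 in week 6 versus 3, and so did leaving out week 3 replicates 2, 4 and 6. Leaving out single arrays gave 1 to 3 members in week 2 versus 1, and 1 to 2 for the comparisons 3 versus 2, 6 versus 3 and 8 versus 1. In week 8 versus 1 the call of Pmp22 was lost without week 8 replicate 6 (log2 fold change -0.93). Each of these losses of Pmp22, Mbp or S100b left an adjusted p under 0.05 with a fold under 2, except that of Mbp without week 3 replicates 2, 4 and 6. Under array weights S100b was also called in week 2 versus 1, and Mag (-1.02) in place of Pmp22 (-0.99) in week 8 versus 1. By the F test 5 to 7 members passed over the alternatives and the arrays left out. The filter at the median signal removed Mag from the fit. A mean over transcript clusters was not run, as each gene had 1. With Spearman's rank correlation in place of Pearson's, the gene closest in profile stayed Cd81 for Pmp22 and Upk1b for Mal and changed for the other 5 members, and Kif5a ranked 568.5 for Mbp and Soga3 218.5 for Mag.

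Directions turned only for differences that were not called. Under quantile normalization the log2 fold change of Mbp was 0.101 in week 2 versus 1 and 0.0133 in week 8 versus 1. Under array weights Mog was -0.116 in week 8 versus 1, and under median centring S100b was -0.0152 and Ngfr -0.0595 in week 6 versus 3. Without week 1 replicates 3, 4 and 6, Mbp was 0.632 in week 2 versus 1 and 0.635 in week 8 versus 1, and Mag was 0.295 and 0.245. Without week 3 replicates 2, 4 and 6, Mog was 0.182 in week 6 versus 3. With single arrays left out, the ranges that crossed 0 were -0.276 to 0.131 for Mbp in week 2 versus 1 and -0.273 to 0.135 in week 8 versus 1, -0.243 to 0.0493 for Pmp22 in week 8 versus 6, and -0.345 to 0.0828 for Mal in week 3 versus 2. In week 6 versus 3 they were -0.151 to 0.277 for Mal, -0.0810 to 0.0926 for Mog, -0.0455 to 0.153 for S100b and -0.0155 to 0.0760 for Ngfr, and in week 8 versus 1 -0.0509 to 0.158 for Mog. The cause was not tested.

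With the replicate number as a block, the counts stayed at 2, 2, 2, 0 and 2 and no call changed. Same-numbered arrays of different weeks had correlations of their deviations from -0.412 to 0.462. The median was 0.0104, against -0.00333 for other pairs, and 9 of 30 arrays correlated best with their own number. The labels give only the number, and these values cannot show whether same-numbered samples shared a litter or a batch.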
